A study of Mus musculus with 24 samples.

Results

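Fibroblast growth factors (FGFs) and their receptors were examined in kidneys of megabladder (mgb-/-) mice, a model of congenital obstructive nephropathy. The 10 genes were chosen by name and not by a rule on their values, though with earlier results of these data known. They were the ligands Fgf1, Fgf2, Fgf7, Fgf9 and Fgf10, the receptors Fgfr1, Fgfr2, Fgfr3 and Fgfr4, and the co-receptor Klotho (Kl). All 10 passed the filter on dim probes and were among the 27958 genes tested. Single-dye Agilent arrays had been hybridized with total RNA of 24 whole kidneys of age-matched males, 1 kidney per array. The labels call their stage young adult, and the methods of the study put them soon after weaning. The 6 control kidneys carried the genotype mgb+/+ and had no hydronephrosis grade. The 18 mgb-/- kidneys were graded by ultrasound, with 7 called mild, 5 moderate and 6 severe according to how much parenchyma was preserved. The mgb-/- line arose by insertion of a transgene, its bladder lacks most of its smooth muscle, and urine backs up into the kidneys from fetal life onward. The labels do not say whether kidneys came from the same mouse, so the p-values measure the spread between kidneys. A grade describes how much tissue was left and is not a treatment.

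FGFs are secreted growth factors that bind receptor tyrosine kinases together with heparan sulfate on the cell surface. Bound receptors signal through the adaptor Frs2 to the Ras and MAP kinase cascade and to PI3 kinase, and the Sprouty proteins and Dusp6 limit that signal. In the developing kidney FGFs maintain nephron progenitors and promote branching of the ureteric bud. In the adult kidney FGF7 and FGF10, made by stromal cells, act on epithelial FGFR2, including that of the urothelium lining the renal pelvis. Klotho, made in the renal tubule, forms with FGF receptors the high-affinity receptor for the bone hormone FGF23, which lowers phosphate reabsorption and vitamin D activation.

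Levels are given as log2 of the processed signal minus the 75th percentile of the array, so a difference of 1 is a 2-fold difference, and the level of one probe cannot be set against that of another. The arrays had 55.1% to 70.7% of probes well above background and a 75th percentile of 492 to 962 intensity units. Kidneys of one group correlated with r between 0.921 and 0.992 over genes. Severe kidney 4 stood apart in quality, with the lowest share of probes well above background and 660 outlier spots against 102 to 261 on the other arrays. Its lowest signal well above background was -4.65, against -5.20 or lower on the others. Proximal tubule markers, which define most of the kidney cortex, were present in every group. Urothelial markers were higher in severe kidneys, with 10 of 11 passing the test and a median log2 change of 3.22. Adrenal markers stood 10.4 and 10.2 log2 units above the control mean in mild kidney 4 and moderate kidney 1.

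Over all mgb-/- kidneys, 2 of the 10 genes were higher than in control and none was lower by limma at an adjusted p under 0.05. Fgf2, a mitogen of fibroblasts and endothelium, rose by 1.04 log2 units (SE 0.35). Fgfr2, the receptor of FGF7 and FGF10, rose by 0.42 (SE 0.13). Among all genes, 5.22% were higher and 7.9% lower by the same rule. This pattern depended on the scaling of the arrays. With scaling by the median neither gene passed (adjusted p = 0.0678 for Fgf2 and 0.146 for Fgfr2), while Fgfr4 and Kl fell (adjusted p = 0.0348 and 0.0367), so that 0 genes were higher and 2 lower, beside 2.14% and 10% of all genes. That scaling also moved the share of higher genes among all calls from 39.8% to 17.6%. Counting unadjusted p-values under 0.05, 6 of the 10 genes passed, beside 28.9% of all genes. The median change of the 10 genes was 0.12, beside 0.01 over all genes tested. Fgf2 was the only one of the 10 that also reached a fold of 2, a rule that 3.08% of all genes met in either direction. Its probe was well above background in 3 of 6 control and 15 of 18 mgb-/- kidneys, and its change was smaller with another background correction. The count of genes that passed was 0 when both kidneys highest in adrenal markers were left out, a choice made after the data were seen.

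In severe kidneys against control, 4 genes passed. Fgf2 and Fgfr2 rose, while Fgfr4 and Kl fell. Among all genes 6.48% were higher and 9.19% lower in that comparison. With scaling by the median Fgfr4 and Kl still passed and Fgf2 and Fgfr2 did not, and the share of higher genes among all calls moved from 41.4% to 22.7%. By unadjusted p-values under 0.05, 5 of the 10 genes passed, beside 31.5% of all genes. The median change of the 10 genes was 0.02, the same as over all genes. None of the 10 passed in mild against control, where 5.93% of all genes passed in either direction, or in moderate against control, where 1.19% did. By unadjusted p-values under 0.05, limma gave 2 of the 10 genes in mild and 4 in moderate kidneys, beside 21.2% and 18.3% of all genes. With severe kidneys 4 and 5 left out, a choice made after the data were seen, 2 genes passed in severe, 1 in mild and 1 in moderate kidneys, beside 8.26%, 10.6% and 4.61% of all genes. All comparisons with control share the same 6 control kidneys.

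**Figure D1:**
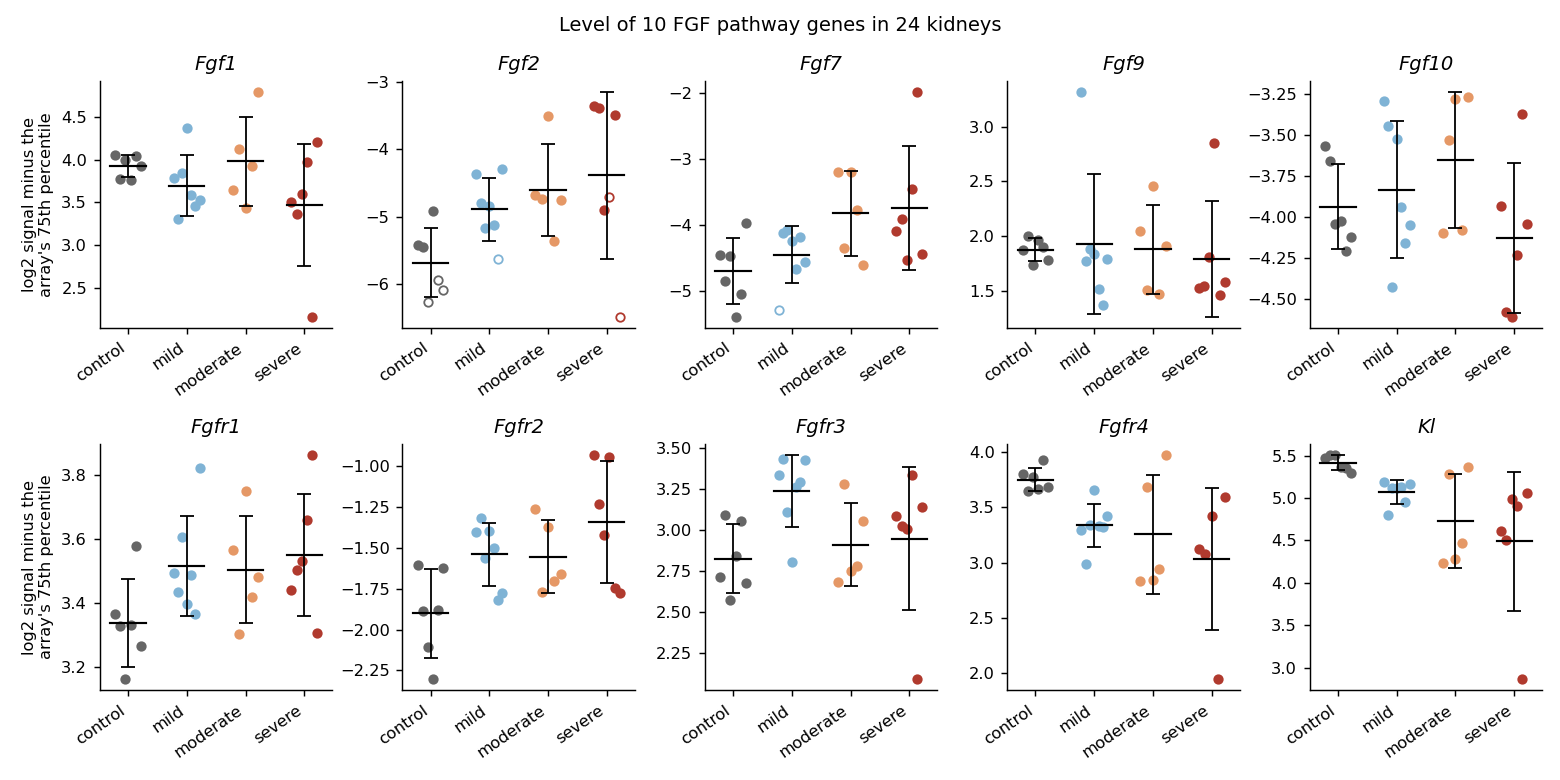
Level of each of the 10 genes (y axis, log2 processed signal minus the array's 75th percentile) in each kidney of the control, mild, moderate and severe groups. Points are kidneys, open where the probe was not well above background, and bars are the mean ± SD. Kl in the 7 mild and 6 severe kidneys lies entirely below the 6 control kidneys. The share of all genes that separate in this way was not counted. Severe kidney 5 is the lowest point for Kl at 2.86.

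Fgf2, also called basic FGF, was near the detection limit. Its probe stood well above background in 3 of 6 control, 6 of 7 mild, 5 of 5 moderate and 4 of 6 severe kidneys. Its level ran from -6.26 to -4.92 in control kidneys with a median of -5.70. Mild kidneys ran from -5.63 to -4.30 with a median of -4.84. The moderate kidneys 1 to 5 were at -4.68, -4.73, -3.50, -5.36 and -4.76. Severe kidneys ran from -6.48 to -3.36 with a median of -4.09. The groups overlapped, with 13 of 18 mgb-/- kidneys above the highest control and severe kidney 6 below the lowest. Among those 13, severe kidney 4 was not well above background. The fold was 2.05 over all mgb-/- kidneys (log2 95% confidence interval 0.32 to 1.75, adjusted p = 0.0498 by limma), and 17 of 18 kidneys lay above the control mean. It was 2.45 in severe kidneys (SE 0.43 on the log2 scale, adjusted p = 0.0452). The mean rose in the order control, mild, moderate and severe, from -5.68 ± 0.51 (SD, n = 6) to -4.39 ± 1.23 (SD, n = 6), and only the outer pair passed the test. Within each of the 3 array slides, mgb-/- kidneys exceeded control by 0.68, 1.06 and 1.37.

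The call on Fgf2 lay close to the threshold, and its size depended on the background correction. Over mgb-/- kidneys it passed in 1 of the 11 alternatives to the processing, array quality weights. The change over mgb-/- kidneys was 0.36 with normexp, which models the background and adds an offset before the log (adjusted p = 0.0826), and 0.45 from the normalized table that the authors deposited, here called the authors' table (adjusted p = 0.0543). In severe kidneys it was 0.58 with normexp (adjusted p = 0.0149) and 0.54 with the authors' table (adjusted p = 0.0546). In mgb-/- against control it passed in 5 of the 24 fits that leave out 1 kidney, namely control 4, mild 6, moderate 4, moderate 5 or severe 6. The adjusted p reached 0.135 without control kidney 3. In severe against control it was lost without any 1 of control 1, 2, 3, 5 and 6, mild 2, 3, 4 and 5, moderate 1, or severe 1, 2 and 5, with an adjusted p up to 0.113. In whole-kidney RNA, fewer cells of a type and less RNA per cell cannot be told apart.

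Fgf7, or keratinocyte growth factor, is made by stromal cells and acts on epithelium. Control kidneys ran from -5.38 to -3.96 with a median of -4.66, and mild kidneys from -5.28 to -4.07 with a median of -4.24. The moderate kidneys 1 to 5 were at -3.19, -4.35, -3.19, -3.77 and -4.60. Severe kidneys ran from -4.53 to -1.98 with a median of -3.99. All mild kidneys lay within the control range, while 3 moderate and 3 severe kidneys lay above it. The change was 0.66 (SE 0.31) over all mgb-/- kidneys and 0.96 (SE 0.36) in severe kidneys, with adjusted p = 0.166 and 0.0733 by limma. Neither passed, although 17 of 18 mgb-/- kidneys were above the control mean. The severe change passed with normexp (0.58, adjusted p = 0.0084) and without severe 3 or severe 6 (adjusted p = 0.046 and 0.036), and it was 0.61 without severe 5 (adjusted p = 0.173). Fgf7 in severe kidney 5, at -1.98, was the highest of the series.

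Fgf1, the acidic FGF that binds all FGF receptors, had a control mean of 3.93 ± 0.13 (SD, n = 6) and a severe mean of 3.47 ± 0.71 (SD, n = 6). Its levels in mgb-/- kidneys scattered from 2.16 to 4.79, on both sides of the control range. The change was -0.23 over all mgb-/- kidneys and -0.46 in severe kidneys, with adjusted p = 0.545 and 0.246. Without severe kidney 5 the severe change was -0.20 (adjusted p = 0.554). A second, dimmer Fgf1 probe gave -0.49 and -0.61 and did not pass either.

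Fgf10, which drives epithelial growth and branching through FGFR2, ran from -4.21 to -3.57 in control and from -4.61 to -3.27 in mgb-/- kidneys. Its change over all mgb-/- kidneys was 0.06 (SE 0.19, adjusted p = 0.881), and the sign turned with 4 of the other processing settings, given with the limits of the processing. Fgf9, a ligand that maintains nephron progenitors, had nearly equal group means, at 1.88 for control, 1.92 for mild, 1.88 for moderate and 1.79 for severe kidneys. Its change of -0.01 (SE 0.21, adjusted p = 0.985) also turned in sign under 3 settings. The spread of Fgf9 differed more than its mean, with an SD of 0.10 in control and 0.64 in mild kidneys. The Fgf9 values of mild kidney 1, at 3.31, and of severe kidney 4, at 2.85, stood apart from the rest of their groups.

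Fgfr2 was measured by a pair of probes, of which the brighter was used. The 250 bases before its start in RefSeq, shown with those of the other 3 genes that passed in severe kidneys, are given so that their composition can be compared. Coordinates are those of GRCm38.p6, sequences read 5′ to 3′ on the gene's strand, and capitals mark matches to GGGCGG (Sp1) or GCGNGGGCG (Egr) on either strand. These 250 bases lie at chr3:37348403-37348652 (+) for Fgf2, chr7:130266809-130267058 (-) for Fgfr2, chr13:55152568-55152817 (+) for Fgfr4 and chr5:150952357-150952606 (+) for Kl.
Fgf2: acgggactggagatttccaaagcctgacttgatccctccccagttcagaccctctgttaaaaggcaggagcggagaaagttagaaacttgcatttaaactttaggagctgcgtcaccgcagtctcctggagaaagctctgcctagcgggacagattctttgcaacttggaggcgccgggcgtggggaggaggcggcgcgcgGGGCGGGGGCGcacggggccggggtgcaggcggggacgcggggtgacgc
Fgfr2: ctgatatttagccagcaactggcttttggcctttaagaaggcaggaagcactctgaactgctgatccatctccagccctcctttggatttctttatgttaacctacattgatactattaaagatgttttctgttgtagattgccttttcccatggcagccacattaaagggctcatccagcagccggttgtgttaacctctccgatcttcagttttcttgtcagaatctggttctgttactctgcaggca
Fgfr4: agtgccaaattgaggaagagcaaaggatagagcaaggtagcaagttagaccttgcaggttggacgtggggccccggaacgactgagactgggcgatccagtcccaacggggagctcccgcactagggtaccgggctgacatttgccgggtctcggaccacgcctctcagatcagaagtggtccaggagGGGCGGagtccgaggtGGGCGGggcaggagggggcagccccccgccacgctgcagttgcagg
Kl: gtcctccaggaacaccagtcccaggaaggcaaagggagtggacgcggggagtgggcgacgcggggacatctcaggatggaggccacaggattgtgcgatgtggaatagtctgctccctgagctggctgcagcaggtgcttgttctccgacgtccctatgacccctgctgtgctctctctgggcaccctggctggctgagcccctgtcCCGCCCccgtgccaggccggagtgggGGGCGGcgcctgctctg
The 250 bases of Kl, Fgfr4 and Fgf2 were 66.8%, 64.0% and 62.4% G and C, and those of Fgfr2 were 44.0%, beside a median of 52.4% over 32851 listed starts. GGGCGG was found 2 times before Kl and Fgfr4 and 1 time before Fgf2, where it overlaps the only Egr match. Over all starts 32.7% held GGGCGG and 4.7% held GCGNGGGCG. TGANTCA (AP-1), TATAAA and CCAAT, held by 6.75%, 12.4% and 33.8% of starts, were in none of these 4 windows. A match is a description of letters, and the arrays did not measure these regions.

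Control kidneys had Fgfr2 levels from -2.30 to -1.61 with a median of -1.88. Mild kidneys ran from -1.82 to -1.32 with a median of -1.50. The moderate kidneys 1 to 5 were at -1.26, -1.77, -1.37, -1.71 and -1.66. Severe kidneys ran from -1.78 to -0.93 with a median of -1.33. The groups overlapped, with 11 of 18 mgb-/- kidneys above the highest control and none below the lowest. All 18 mgb-/- kidneys lay above the control mean. Fgfr2 was 1.34-fold higher over all mgb-/- kidneys (log2 95% confidence interval 0.15 to 0.69, adjusted p = 0.0353 by limma) and 1.47-fold higher in severe kidneys (SE 0.16 on the log2 scale, adjusted p = 0.0237). Within slides the difference was 0.49, 0.31 and 0.46. In the order of means, control came first at -1.90, moderate and mild followed at -1.55 and -1.54, and severe came last at -1.34. No pair of grades passed the test.

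The call on Fgfr2 in mgb-/- kidneys was lost without any 1 of control kidneys 2, 3, 4 and 5, with adjusted p up to 0.114. In severe kidneys it was lost without control 3, control 4, severe 1 or severe 2, with adjusted p up to 0.0629. The dimmer Fgfr2 probe, spotted 10 times, had a similar change of 0.39 (SE 0.20) over all mgb-/- kidneys and did not pass (adjusted p = 0.198 over all probes). In severe kidneys it gave 0.40 (SE 0.25, adjusted p = 0.282). These probes were not matched to the IIIb and IIIc splice forms of Fgfr2, which bind different ligands.

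Fgfr1 is the receptor of mesenchyme and stroma. The control mean was 3.34 ± 0.14 (SD, n = 6), and the means of mild, moderate and severe kidneys were 3.52 ± 0.16 (SD, n = 7), 3.50 ± 0.17 (SD, n = 5) and 3.55 ± 0.19 (SD, n = 6). The change over all mgb-/- kidneys was 0.18 (SE 0.083), with 16 of 18 kidneys above the control mean and adjusted p = 0.139. It passed with array quality weights (0.20, adjusted p = 0.0113). The severe change of 0.21 (adjusted p = 0.171) passed with quantile normalization (0.40, adjusted p = 0.0468) and with the authors' table (0.42, adjusted p = 0.0344). The other 2 Fgfr1 probes gave -0.12 and 0.06. Fgfr3, an epithelial receptor, had its highest mean in mild kidneys, at 3.24 ± 0.22 (SD, n = 7) beside 2.83 ± 0.21 (SD, n = 6) in control. In mild kidneys 6 of 7 values lay above the highest control, and the change of 0.41 (SE 0.16) had an adjusted p of 0.141. In severe kidneys the Fgfr3 change was 0.12 (SE 0.17), and it turned to -0.06 when arrays were scaled by the median.

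Fgfr4, a receptor expressed in the proximal tubule, fell in severe kidneys. Its control levels ran from 3.65 to 3.93 with a median of 3.73. Mild kidneys ran from 2.99 to 3.66 with a median of 3.33. The moderate kidneys 1 to 5 were at 2.83, 3.68, 2.84, 2.94 and 3.98. The severe kidneys with a value, 1, 2, 3, 5 and 6, were at 3.12, 3.08, 3.42, 1.95 and 3.59. Severe kidney 4 had no value because its spot was marked as an outlier, and the fit used the remaining 5. All 5 severe kidneys lay below the lowest control, as did 6 of 7 mild and 3 of 5 moderate kidneys, while moderate kidney 5 lay above the highest.

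Fgfr4 fell to 0.607 of control in severe kidneys (log2 change -0.72, SE 0.24, adjusted p = 0.0455 by limma). Over all mgb-/- kidneys the change was -0.53 (SE 0.19, adjusted p = 0.0626), and 1 of 17 kidneys lay above the control mean. With slide as a block the severe call was lost (-0.73, adjusted p = 0.0536), as it was with the replicate block (adjusted p = 0.0923), quantile normalization (-0.56, adjusted p = 0.072) and the authors' table (-0.55, adjusted p = 0.0584). The mgb-/- difference within slides was -0.53, -0.57 and -0.49. The second Fgfr4 probe, which had a value in all 24 kidneys, gave -0.62 in severe kidneys (SE 0.21, adjusted p = 0.04996 over all probes). The mean fell in the order control, mild, moderate and severe, from 3.75 to 3.34, 3.26 and 3.03, and no neighbours in that order passed the test. Without severe kidney 5 the severe change was -0.45 with adjusted p = 0.128. It also missed the threshold without any 1 of the 6 controls, mild 1, 2, 3, 5, 6 or 7, or severe 1 or 2, with adjusted p up to 0.0801.

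Kl, the obligate co-receptor of FGF23, had the tightest control values of the 10 genes. They ran from 5.30 to 5.51 with a median of 5.42. Mild kidneys ran from 4.80 to 5.19 with a median of 5.12. The moderate kidneys 1 to 5 were at 4.23, 5.28, 4.28, 4.47 and 5.37. Severe kidneys ran from 2.86 to 5.06 with a median of 4.76. Every mild and severe kidney lay below the lowest control, as did 4 of 5 moderate kidneys, and moderate kidney 5 alone lay within the control range. How many of all genes separate a grade from control, as Kl and Fgfr4 did, was not counted. Whether this separation sets the 2 genes apart from others is therefore not known. All 18 mgb-/- kidneys lay below the control mean.

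Kl fell to 0.525 of control in severe kidneys (log2 change -0.93, 95% confidence interval -1.50 to -0.36, adjusted p = 0.0278 by limma). Over all mgb-/- kidneys the change was -0.64 (SE 0.24) and did not pass (adjusted p = 0.0754). Leaving out severe kidney 5, the lowest, gave a smaller change of -0.53 with a lower adjusted p of 0.0196, and the moderate change of -0.69 then also passed (adjusted p = 0.0348). The severe change without that kidney was -0.60 (adjusted p = 0.0359). It missed the threshold without control 2, control 3 or severe 2, with adjusted p between 0.0504 and 0.0561. With the replicate block it also missed the threshold (adjusted p = 0.0659). In mild kidneys the change of -0.35 (SE 0.26) had adjusted p = 0.499. That fit shares one spread among groups whose SD ran from 0.087 in control to 0.82 in severe kidneys. Fitted on control and mild kidneys alone, Kl and Fgfr4 passed (adjusted p = 0.00723 and 0.00912 by limma), beside 2 genes that were higher, in a fit that called 20% of all genes. By limma on control and severe kidneys alone, none of the genes called in severe kidneys passed. The adjusted p was then 0.0954 for Kl, 0.106 for Fgfr4, 0.0924 for Fgfr2 and 0.13 for Fgf2. Within slides the mgb-/- difference in Kl was -0.64, -0.70 and -0.58. The mean fell from 5.42 in control to 5.07, 4.73 and 4.49 in mild, moderate and severe kidneys, and no neighbours in that order passed the test.

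**Figure D2:**
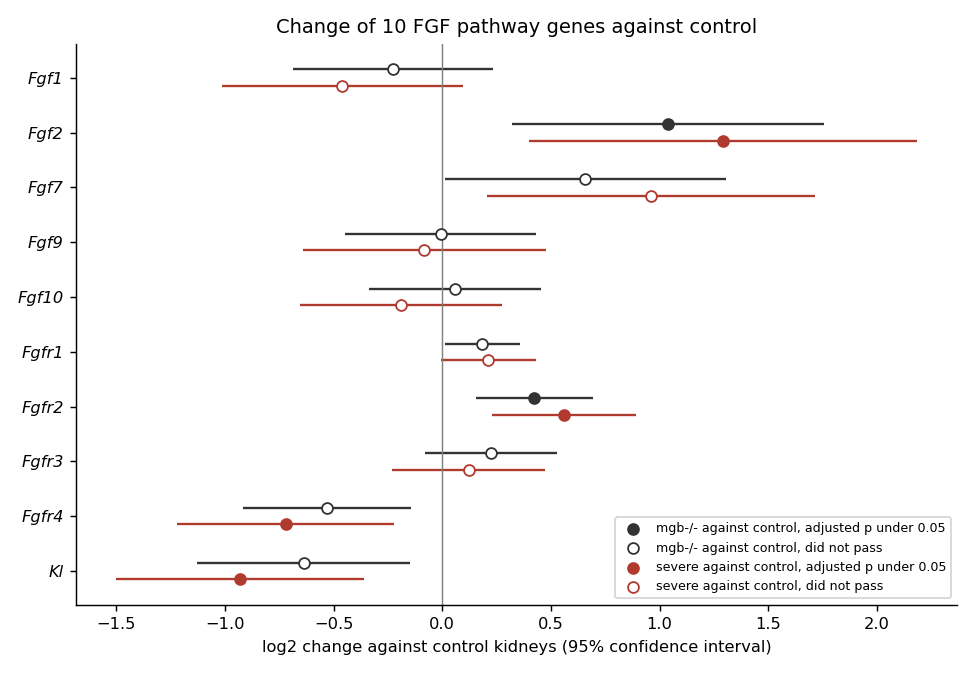
Log2 change of each of the 10 genes against control (x axis, with 95% confidence intervals) over all 18 mgb-/- kidneys (black) and in the 6 severe kidneys (red, 5 for Fgfr4). Filled points passed an adjusted p under 0.05. Fgf2 and Fgfr2 lie above 0 in both comparisons, Fgfr4 and Kl lie below 0, and the sign of Fgf9, Fgf10 and Fgfr3 turned under some other processing settings.

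Between the grades themselves, none of the 10 genes passed. All genes passed at a share of 0.576% in severe against mild, 0.0% in moderate against mild and 0.00715% in severe against moderate kidneys. By unadjusted p under 0.05, limma gave 1, 0 and 0 of the 10 genes, beside 10.8%, 6.6% and 10.2% of all genes. That gene was Kl, lower in severe than in mild kidneys by 0.58 (95% confidence interval -1.13 to -0.03, adjusted p = 0.439). Fgf7 was 0.71 higher (95% confidence interval -0.01 to 1.44, adjusted p = 0.467). Fgf2 differed by 0.50, with an interval from -0.36 to 1.36, and Fgfr2 by 0.20, with an interval from -0.12 to 0.52. For Kl, Fgf7 and Fgf2 these intervals include differences as large as those between severe and control kidneys.

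The kidneys at the extremes were often the same ones. Severe kidney 5 had the lowest Kl, Fgfr4, Fgfr3 and Fgf1 and the highest Fgf7 and Fgfr1 of all 24 kidneys. Moderate kidneys 1, 3 and 4 had Kl from 4.23 to 4.47 and Fgfr4 from 2.83 to 2.94, while moderate kidneys 2 and 5 had 5.28 and 5.37 for Kl and 3.68 and 3.98 for Fgfr4. The moderate grade held values of both kinds with a gap between them.

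Cell type markers differed among these kidneys, in part along with those values. The proximal tubule markers averaged 1.84 log2 units below the control mean in severe kidney 5, and their summed signal, in units of the array's 75th percentile, was 664 to 2068 in severe against 1727 to 2136 in control kidneys. In severe kidneys 9 of 10 proximal tubule markers were lower and 1 passed. In moderate kidneys 1, 3 and 4 they averaged 0.42, 0.44 and 0.28 below, while moderate kidney 2 was at -0.02 and moderate kidney 5 was 0.40 above. In mild kidneys, where all 7 had lower Kl than any control, the median of the proximal tubule markers was -0.02. Fibroblast and myofibroblast markers averaged 2.13 above in severe kidney 5 and 1.21 to 1.56 above in moderate kidneys 1, 3 and 4. They were also 1.06 above in moderate kidney 2, whose Kl and Fgfr4 were near control, and stood at -0.86 in moderate kidney 5. All 10 of these markers were higher over mgb-/- kidneys, 3 passed, and their summed signal ran from 92.1 to 121 in control kidneys, and from 109 to 166, 57.9 to 315 and 137 to 429 in the mild, moderate and severe grades. Distal convoluted and connecting tubule markers, from a segment rich in Klotho, summed to between 34.7 and 44.4 in control kidneys and to 31.8 to 61.8, 13.5 to 42.1 and 9.36 to 49.4 in the mild, moderate and severe grades, and none of 6 passed. No marker of these 3 lists was at background throughout a group. Their part in the levels of Kl, Fgfr4 and Fgf7 was not tested.

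**Figure D3:**
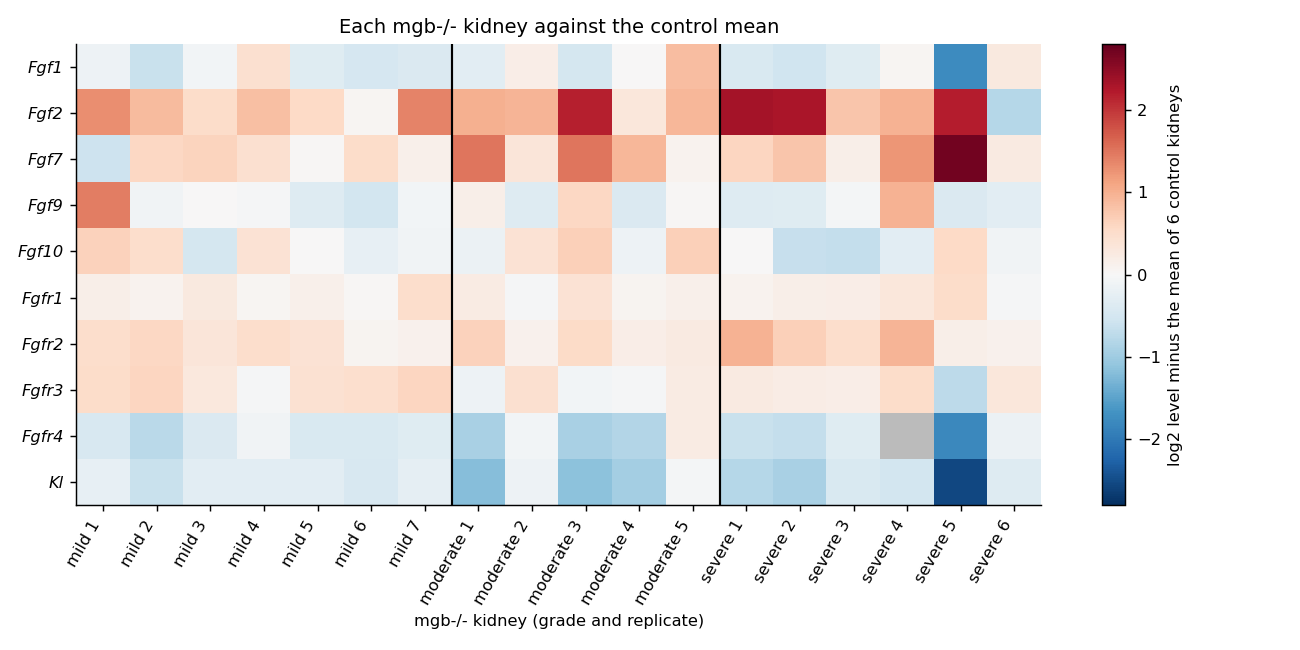
Log2 level of each of the 10 genes in each mgb-/- kidney minus the mean of the 6 control kidneys (colour scale, red higher and blue lower, grey no value), with kidneys in columns by grade. Kl is below the control mean in all 18 columns, and severe kidney 5 and moderate kidneys 1, 3 and 4 carry the deepest blue for Kl together with red for Fgf7.

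The study cites earlier work on ischemia-reperfusion and ureteral obstruction that tied Fgf7 and Fgfr2 to urothelial proliferation. From these same arrays it predicted activation of Fgf2, which is not a measure of Fgf2 RNA. It proposes that this pathway may act in urothelial expansion here. Its own evidence on urothelial proliferation was Ki-67 staining, with a higher percentage of positive urothelial cells in severe than in control kidneys. Each of the 10 genes was set against the mean of 11 urothelial markers over the 18 mgb-/- kidneys. These markers are RNA levels in whole kidney and do not measure proliferation, so the study's proposal was not tested. Fgf7 correlated positively, with Pearson's r = 0.665 (permutation p = 0.00165, two-sided) and Spearman's rho = 0.678 (permutation p = 0.00245). Kl correlated negatively, with r = -0.624 (permutation p = 0.0031) and rho = -0.713 (permutation p = 0.00146). Over the 10 relations the adjusted p was 0.0155 for both by Pearson and 0.0122 for both by Spearman. Without mild kidneys 1 and 5, the farthest from the median of the markers, r was 0.556 for Fgf7 and -0.620 for Kl. Fgfr2 had r = 0.349 (permutation p = 0.155, adjusted p = 0.258) and Fgf2 r = 0.329 (permutation p = 0.185, adjusted p = 0.264). Fgfr4 had r = -0.546 over 17 kidneys (permutation p = 0.0214, adjusted p = 0.0713) and Fgfr3 r = -0.495 (permutation p = 0.0348, adjusted p = 0.087).

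These relations were weaker within grades and rested in part on 1 kidney. After centring within grade, r was 0.621 for Fgf7 and -0.519 for Kl, with adjusted p = 0.0567 and 0.0814 by permutation, and no relation passed. Centred within slide, r was 0.657 and -0.640. Within the slides one by one, with 6 kidneys each, Fgf7 had r = 0.723, 0.734 and 0.250 and Kl had r = -0.790, -0.726 and -0.202. Without severe kidney 5 no relation passed. The summed signal of urothelial markers ran from 16.0 to 28.2 in control kidneys and from 15.7 to 70.4, 24.7 to 65.4 and 82.6 to 262 in the mild, moderate and severe grades, so grade and markers moved together.

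**Figure D4:**
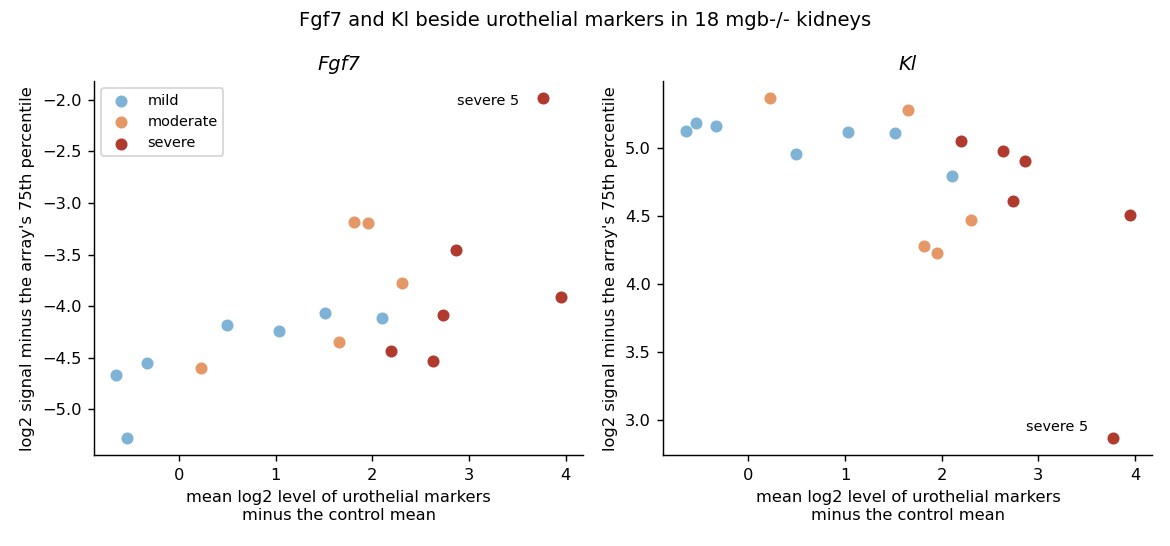
Level of Fgf7 (left) and Kl (right; y axes, log2 processed signal minus the array's 75th percentile) against the mean log2 level of 11 urothelial markers minus the control mean (x axis) in 18 mgb-/- kidneys coloured by grade. Fgf7 rises to the right (r = 0.665) and Kl falls (r = -0.624), and severe kidney 5 is the highest point for Fgf7 and the lowest for Kl.

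For each gene that passed, the 3 named genes of most similar pattern were taken from 16269 others by Pearson's r over the kidneys, as a description in which all points share the same arrays. Kl was closest to 4931406C07Rik (r = 0.985), Oxct1 (r = 0.979) and Xylb (r = 0.973) over 24 kidneys. Oxct1 encodes a ketone body enzyme and Xylb xylulokinase. Fgfr4 was closest to Ttc36 (r = 0.984), Ecsit (r = 0.974) and Klhdc10 (r = 0.973) over 23 kidneys. Without severe kidney 5 these 6 values lay between 0.934 and 0.972. Fgf2 was closest to Trim68 (r = 0.859), Prex2 (r = 0.858) and Zbed6 (r = 0.847). Fgfr2 was closest to Srms (r = 0.816), Kcnf1 (r = 0.807) and Hspb7 (r = 0.795).

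The remaining genes of the pathway were described from 5 further lists, beside median changes of 0.01 over mgb-/- and 0.02 in severe kidneys over all genes. The counts of each list stand beside 5.22% of all genes higher and 7.9% lower over mgb-/- kidneys, and 6.48% and 9.19% in severe kidneys. Of 17 other FGF ligands, 7 passed the filter on dim probes, and 1 of those 7 passed the test over mgb-/- kidneys. Fgf12, an intracellular member of the family that regulates sodium channels, rose by 0.93 (SE 0.24, adjusted p = 0.014 by limma), from -4.48 ± 0.28 (SD, n = 6) in control to -3.55 ± 0.57 (SD, n = 18). The mean was highest in mild kidneys, at -3.35. Fgf23, the ligand of the Klotho complex, ran from 2.25 to 3.94 in control and from 1.55 to 5.67 in mgb-/- kidneys. Its change was 0.38 (SE 0.47, adjusted p = 0.637 by limma). The array holds 2 probes for Fgf23, and these values are those of the brightest. Whether that probe measures Fgf23 alone was not tested, so its level is not evidence of Fgf23 expression in the kidney. The median change of the 7 ligands was 0.35.

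Co-receptors and binding proteins form the longest list. Over mgb-/- kidneys 6 of 21 rose and 1 fell, and in severe kidneys 4 rose and 1 fell, with list medians of 0.06 and -0.01. Sulf2 and Sulf1 encode extracellular sulfatases that trim heparan sulfate. Sulf2 rose by 0.62 (SE 0.10, adjusted p = 8.59e-04), with control kidneys from 0.41 to 0.77 and mgb-/- kidneys from 0.78 to 1.53. Sulf1 rose by 0.98 (SE 0.29, adjusted p = 0.0276). Among the heparan sulfate proteoglycans, Sdc1, the epithelial syndecan, rose by 1.19 (SE 0.31) and by 1.81 in severe kidneys (SE 0.31, adjusted p = 0.00105). The mean of Sdc1 was -0.43 in control kidneys and 0.26, 0.70 and 1.38 in the 3 grades by severity, and the severe against mild difference of 1.12 had an adjusted p of 0.105.

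Sdc2, the syndecan of mesenchyme and endothelium, moved the other way. It fell by 0.93 (SE 0.21, adjusted p = 0.00758), from 2.40 to 2.76 in control to 1.07 to 2.83 in mgb-/- kidneys. Gpc3, a glypican, rose by 0.75 (SE 0.17, adjusted p = 0.0086). Fgfbp1, which releases FGFs from the matrix, rose by 1.21 (SE 0.34, adjusted p = 0.0232), and its change in severe kidneys of 0.83 did not pass. The other calls were Flrt1 (0.58, adjusted p = 0.0336) and, in severe kidneys, Hspg2 (0.68, adjusted p = 0.0397). Flrt1 was lost with scaling by the median (adjusted p = 0.105), the mean of its probes, the replicate block, or without control 1, 3, 4 or 6. Hspg2 was lost in 14 fits, with adjusted p up to 0.185 with scaling by the median. Fgfbp1 was lost without control 3 or 4 (adjusted p = 0.0559 and 0.0628), and Sulf1 without control 1, 3, 4 or 5 (adjusted p up to 0.0666). Fgfrl1, a receptor without a kinase, changed by 0.06 (adjusted p = 0.793), a change smaller than the shift that scaling by the median gives. Klb, the beta-Klotho co-receptor, had a change of 0.80 (SE 0.44, adjusted p = 0.236).

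Of 19 signal transducers 18 were tested. Over mgb-/- kidneys 1 rose and 3 fell, in severe kidneys 1 rose and 3 fell, and the list medians were -0.08 and -0.18. Pik3r1, the regulatory subunit of PI3 kinase, rose by 0.41 (SE 0.097, adjusted p = 0.00957), while the catalytic subunit Pik3ca fell by 0.41 (SE 0.11, adjusted p = 0.0192). Gab1, the docking protein between Frs2 and PI3 kinase, fell by 0.54 (SE 0.13, adjusted p = 0.0119). Its control levels ran from 0.25 to 0.74 and its severe levels from -0.62 to 0.02. The kinase Map2k2 fell by 0.37 (SE 0.12, adjusted p = 0.0352). The exchange factor Sos1 fell in severe kidneys by 0.56 (SE 0.19, adjusted p = 0.0494). The call on Sos1 held in 6 of the 24 fits that leave out 1 kidney, with adjusted p up to 0.119. Pik3ca was lost without control 2 or 3 (adjusted p = 0.0641 and 0.0648) and Map2k2 without control 1, 3, 4 or 5 (adjusted p up to 0.104). Pik3r1 was lost with scaling by the median (0.25, adjusted p = 0.158).

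Feedback inhibitors and target genes did not move as one. Of 12 tested among 13, 1 rose and 3 fell, in mgb-/- and in severe kidneys alike, with medians of 0.08 and 0.13. The 3 that fell include Spry3, which passed the filter on dim probes through the control kidneys, where it is high. Spry2, an inhibitor of receptor signalling, rose by 0.56 (SE 0.14, adjusted p = 0.0116). Spry1 had a change of 0.50 (SE 0.19, adjusted p = 0.0736) and Dusp6, the ERK phosphatase, 0.33 (SE 0.12, adjusted p = 0.0637). Spry4, Spred1, Spred2 and Etv4 had changes of -0.11, 0.13, 0.17 and 0.13 that did not pass, and Spred3 was too dim to test.

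Spry3, another Sprouty, was near background in most kidneys. It was well above background in 6 of 6 control and 1 of 18 mgb-/- kidneys, so its fold is a bound. Control kidneys were at least 1.75-fold higher than mild and at least 1.79-fold higher than moderate kidneys, and these bounds were not tested. The test used the measured values, where limma gave adjusted p = 6.17e-04 for mild and 0.0119 for moderate kidneys. In these bounds each array of the dim group was raised to the lowest signal well above its background, and the measured means were -5.00 for control, -7.59 for mild and -7.44 for moderate kidneys. With normexp background correction the Spry3 change over mgb-/- kidneys was -0.27 (adjusted p = 0.177), in severe kidneys it was -0.12 (adjusted p = 0.574), and in mild and moderate kidneys it missed the threshold too. The transcription factors Etv1 and Etv5 fell by 1.36 (SE 0.32, adjusted p = 0.0086) and 0.49 (SE 0.15, adjusted p = 0.0356). Etv5 was lost without control 1, 3, 4, 5 or 6, with adjusted p up to 0.0838. Etv1 ran from 2.35 to 3.01 in control and from 0.02 to 2.58 in severe kidneys.

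Of 11 genes of the FGF23 and Klotho mineral axis, 1 rose over mgb-/- kidneys and 1 fell in severe kidneys, with medians of -0.16 and -0.35. The list also holds receptors and calcium handling genes and is not a list of FGF23 targets. Cyp27b1, which activates vitamin D and is repressed by FGF23, rose by 1.70 (SE 0.45, adjusted p = 0.0162), from -2.18 to -0.93 in control to -2.19 to 1.68 in mgb-/- kidneys. By grade Cyp27b1 passed in mild kidneys and not in moderate or severe kidneys. The mild call was lost in several fits, with adjusted p up to 0.098 by limma with the replicate block. Slc34a3, a phosphate cotransporter of the proximal tubule, fell by 1.58 in severe kidneys (SE 0.43, adjusted p = 0.0191), a call lost without severe 1 or severe 2 (adjusted p = 0.0504 and 0.0528). Cyp24a1, which inactivates vitamin D, had a change of 1.19 (SE 0.62, adjusted p = 0.21). Slc34a1 of this list is also a proximal tubule marker, and Trpv5 and Calb1 are also distal tubule markers.

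**Figure D5:**
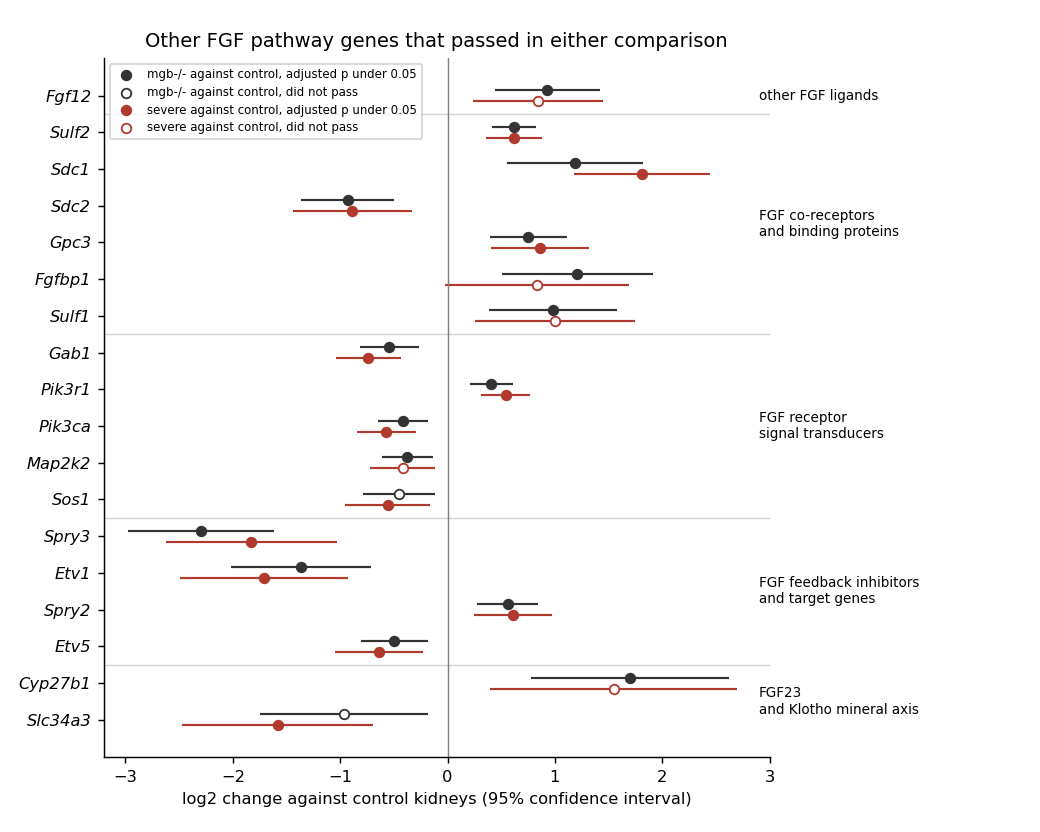
Log2 change against control (x axis, with 95% confidence intervals) of the named genes of the 5 further pathway lists that passed over all mgb-/- kidneys (black) or in severe kidneys (red). Filled points passed an adjusted p under 0.05. Sulf2, Sdc1, Gpc3, Pik3r1 and Spry2 lie above 0 and Sdc2, Gab1, Pik3ca, Spry3, Etv1 and Etv5 below 0 with filled points in both comparisons, and the Spry3 points are fitted values of a probe near background.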

How the data were processed

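Total RNA of 24 kidneys had been labelled with Cy3 and hybridized to Agilent SurePrint G3 Mouse arrays. The authors deposited the output of Agilent Feature Extraction 10.10 (per the submitters' processing notes), in which the processed signal holds intensity values corrected for background within an array but not normalized between arrays. They also deposited a table of normalized intensity values, used as an alternative. How outliers were filtered and how arrays were normalized for that table is not given in the sources used here. No column of per-sample values was left unmapped.

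From log2 of the processed signal, the 75th percentile of each array's spots other than controls was subtracted. Spots called outliers were dropped and repeated spots averaged. A probe was kept if it stood well above background on 5 or more arrays, which left 38834 of 55681. Through RefSeq accessions 26762 probes had a symbol, and the brightest probe stood for a gene. A total of 16 probes map to the 10 genes, with 2 for Fgf1, Fgfr2, Fgfr3 and Fgfr4, 3 for Fgfr1 and 1 for each other gene. Comparisons of mgb-/- with control used a limma 3.58.1 fit (R 4.3.3) with 2 groups, and those of grades a fit with 4, each with Benjamini-Hochberg adjustment across the 27958 genes. A gene passed at an adjusted p under 0.05. Tests on single probes were adjusted over 38834 probes. Correlations used 100000 permutations. For the bound on a fold, the dim group's arrays were raised to their lowest signal well above background. Python 3.11 and matplotlib 3.10.9 drew the figures. The number of arrays limits the precision.

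The 10 genes, the lists and the tests were chosen with earlier results of these data known. Named genes are the 10, up to 6 of each further list by adjusted p among those that passed over mgb-/- or in severe kidneys, the Spry, Spred, Dusp6, Etv4, Etv5, Fgfrl1, Klb, Fgf23, Cyp27b1 and Cyp24a1 genes whatever their result, and the 3 genes most correlated with each passing gene. Flrt1 and Hspg2 were named after their values were seen. An item of the signal transducer list is not reported here.

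The alternatives tried were scaling by the median, quantile normalization, normexp correction with an offset of 50 on the median signal (the files hold no mean signal), the authors' table, other filters on dim probes, the mean of a gene's probes, array quality weights, a block on slide or on replicate number, fits on the compared groups alone and the omission of each kidney. Leaving out both kidneys highest in adrenal markers (mild 4 and moderate 1), or severe kidneys 4 and 5, was chosen after seeing the data. The steps were tested on simulated data for mgb-/- against control with 27958 genes. Of 100 genes with a log2 change of 1, 67% were recovered, and of 100 with a log2 change of 2, 88%, with 7 false calls. The simulated noise was independent between genes and had no detection limit, and far fewer genes were changed than passed in the data. Changes as small as those of Fgfr2, Fgfr4 and Kl were not simulated, so these shares do not describe their recovery.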

Additional observations from a re-analysis of the deposited data

Results flagged for a closer look

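In 4 of 40 groups of kidneys, 1 kidney stood apart by Dixon's ratio of its gap to the group's range, and chance gives about 1 in 20 groups. Fgf9 was high in mild kidney 1 (level 3.31, ratio 0.735) and in severe kidney 4 (level 2.85, ratio 0.748). Severe kidney 5 was low in Fgfr3 (level 2.09, ratio 0.734) and in Kl (level 2.86, ratio 0.749). Severe kidney 4 also had the most outlier spots, and severe kidney 5 had the lowest proximal tubule markers. Whether these bear on the values was not tested.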

How the results depend on the processing

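Over all mgb-/- kidneys, the main count of 2 genes became 0 with quantile normalization, no filter on dim probes, the mean of a gene's probes, the replicate block, or both kidneys highest in adrenal markers left out. It became 1 with the authors' table, a filter on all 24 arrays (which tests 8 of the 10 genes) or slide as a block, and 6 with array quality weights, which call 30.4% of all genes. The count was 2 with scaling by the median and with normexp, but Fgfr4 and Kl took the place of Fgf2 and Fgfr2 under the first, and Fgfr4 that of Fgf2 under the second. It was 3 without severe kidneys 4 and 5, where Fgfr2, Fgfr4 and Kl passed. For mild against control, 0 became 4 with array quality weights or with those groups alone (26.4% and 20% of all genes) and 1 without severe kidneys 4 and 5. For moderate against control, 0 became 2 with array quality weights (11.2% of all genes) and 1 without severe kidneys 4 and 5. For severe against control, 4 became 2 with scaling by the median, no filter on dim probes, the replicate block, or severe kidneys 4 and 5 left out, and 0 with those groups alone. Between grades the count was 0 under every alternative run. Leaving out 1 kidney gave 0 to 3 genes for mgb-/-, 0 to 1 for mild (1 without severe 5), 0 to 1 for moderate (1 without severe 5) and 0 to 5 for severe kidneys (0 without control 3 or severe 2). The 2 correlations with urothelial markers became 1 with scaling by the median, 4 with the mean of a gene's probes and 0 after centring within grade, and 0 to 3 with 1 kidney left out (0 without severe 5). The cause of these changes was not tested.

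Scaling by the median moved the median change of all genes by -0.16 over mgb-/- and by -0.18 in severe kidneys. The sign of small changes turned. For Fgf9 over mgb-/- kidneys the change was 0.053 with quantile normalization, 0.012 with normexp and 0.10 with the authors' table, and -0.093 to 0.021 with 1 kidney left out. For Fgf10 it was -0.094 with quantile normalization, -0.10 with scaling by the median, -0.16 with the authors' table and -0.0084 with array quality weights. In severe kidneys Fgf9 had 0.0061 with quantile normalization and 0.070 with the authors' table, Fgf10 had 0.10 with normexp, and Fgfr3 had -0.055 with scaling by the median. The authors' table gave Fgf2 a change of 0.54 in severe kidneys beside 1.29. The labels do not say whether kidneys of different groups that share a replicate number are paired. Their deviations correlated with r from -0.549 to 0.646 (median 0.00399, 10 of 33 pairs over 0.1). For kidneys with different numbers r ran from -0.665 to 0.578 (median 0.00324, 58 of 182 pairs over 0.1). With the replicate block 0 genes passed over mgb-/- and 2 in severe kidneys. Fgf2 was at or near background in 3 of 6 control kidneys, which limits its fold.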
